A study of Homo sapiens with 9 samples.

Results

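The genes described here were 9 regulators and markers that breast cancer is sorted by: the steroid hormone receptors ESR1 and PGR, the luminal transcription factors GATA3, FOXA1 and SPDEF, the oestrogen-induced secreted protein TFF1, and the basal transcription factors FOXC1, SOX10 and EN1. They were taken as a list of symbols, with no rule on their values. This list and the other gene lists used here were chosen with earlier results of these data known. Of the 9 genes, 8 had a value in at least 1 library, 6 were among the 26636 genes listed in all 9 expression tables, and 5 reached the mean of 1 FPKM (a read level per length of transcript and per depth of the library) that a gene needed to be tested. SOX10 had no value in these tables and was not analysed here. The libraries were RNA-seq of cells labelled BT549, an established human breast cancer line described in the field as triple negative and mesenchymal-like, with genotype labelled WT in every library. Cells were transfected, 24 h after seeding, with one siRNA against the long non-coding RNA WFDC21P (siWFDC21P-1, n = 3), with another against it (siWFDC21P-2, n = 3) or with the control siRNA (siNC, n = 3), and RNA was taken 48 h later. No label says whether the 3 libraries of a group came from separate cultures, so a p-value measures only the spread between these libraries.

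In the luminal lineage of the mammary gland, oestrogen receptor alpha, encoded by ESR1, is a ligand-bound transcription factor; FOXA1 opens chromatin for it, GATA3 binds beside it, and PGR and TFF1 are among its classical target genes. SPDEF, an ETS factor, belongs to the same luminal programme. FOXC1, SOX10 and EN1 mark basal-like tumours, which usually lack oestrogen and progesterone receptors. The glucocorticoid receptor, encoded by NR3C1, is a related steroid receptor that also occurs in tumours without ESR1.

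The 9 libraries fell into 3 sets of expression, within which correlations of log2(FPKM + 1) over all tested genes were 0.927 to 0.986 and between which they were 0.658 to 0.744. Set 1 held siWFDC21P-1 replicates 1 and 2 and siNC replicate 1. Set 2 held the library labelled siWFDC21P-1 replicate 3 and the library labelled siNC replicate 2. Set 3 held siWFDC21P-2 replicates 1 to 3 and siNC replicate 3. The same sets came out when the members and the genes of all context lists were left out, with 36 of 36 library pairs placed alike. Set 2 went against the BT549 label: of 10 epithelial genes that are low in mesenchymal-like breast lines, all 10 were at 1 FPKM or more in both of its libraries, against 1 of 10 in set 1 and 1 of 10 in set 3. EPCAM, the epithelial adhesion molecule, was at 209 to 228 FPKM in set 2 and at most 0.0731 FPKM in the other sets. VIM, a mesenchymal filament protein, was at 0.517 to 0.699 FPKM in set 2, 38.5 to 41.0 FPKM in set 1 and 162 to 310 FPKM in set 3. Of 11 genes that are high in mesenchymal-like lines, all 11 were at 1 FPKM or more in set 3, 6 in set 1 and 2 in set 2. Sets 1 and 3 also differed from each other: 3 of these 11 genes were under 0.1 FPKM in every library of set 1, against 0 in set 3. Whether set 1 or set 3 holds the labelled line was not tested. Which cells gave each set cannot be told from the labels, so each set is named by its number. Differences between sets are described without a test. Depth was 28.1 to 29.7 M reads a library in sets 1 and 2 and 16.3 to 17.4 M in set 3. WFDC21P itself was at 0.0629 and 0.767 FPKM in the siWFDC21P-1 libraries of set 1 against 3.08 FPKM in siNC replicate 1, and at 4.13, 3.32 and 2.12 FPKM in siWFDC21P-2 replicates 1 to 3 against 6.87 FPKM in siNC replicate 3. In set 2 it was at 0.227 FPKM (7 reads) in the library labelled siWFDC21P-1 replicate 3 against 0.129 FPKM (4 reads) in the library labelled siNC replicate 2. The targeted RNA was thus not below the control in set 2, and so few reads cannot show whether it was lowered. Every set 2 ratio carries that limit.

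Promoters are shown for FOXA1, FOXC1 and SPDEF, because these genes were detected in different combinations of sets and RefSeq gives each a single start. Each is a window of 300 bases around the start, most of them before it, written 5′ to 3′ on the gene's strand (RefSeq, GRCh38.p14); capitals mark CpG pairs. FOXA1 lies at chr14:37595200-37595499 on the minus strand, FOXC1 at chr6:1609665-1609964 on the plus strand and SPDEF at chr6:34556280-34556579 on the minus strand.
FOXA1: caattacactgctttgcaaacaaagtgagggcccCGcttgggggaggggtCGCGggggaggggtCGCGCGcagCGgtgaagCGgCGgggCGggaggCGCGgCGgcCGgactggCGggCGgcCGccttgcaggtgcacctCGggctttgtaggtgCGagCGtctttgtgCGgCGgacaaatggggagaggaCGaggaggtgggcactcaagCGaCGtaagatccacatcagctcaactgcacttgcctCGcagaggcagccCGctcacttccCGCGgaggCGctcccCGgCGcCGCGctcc
FOXC1: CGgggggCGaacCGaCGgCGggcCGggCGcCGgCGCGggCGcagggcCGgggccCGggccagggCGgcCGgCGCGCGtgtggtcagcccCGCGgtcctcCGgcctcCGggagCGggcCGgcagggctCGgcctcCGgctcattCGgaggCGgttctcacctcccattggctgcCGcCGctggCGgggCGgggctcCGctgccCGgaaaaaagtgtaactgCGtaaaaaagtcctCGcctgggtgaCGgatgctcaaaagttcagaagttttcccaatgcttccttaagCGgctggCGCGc
SPDEF: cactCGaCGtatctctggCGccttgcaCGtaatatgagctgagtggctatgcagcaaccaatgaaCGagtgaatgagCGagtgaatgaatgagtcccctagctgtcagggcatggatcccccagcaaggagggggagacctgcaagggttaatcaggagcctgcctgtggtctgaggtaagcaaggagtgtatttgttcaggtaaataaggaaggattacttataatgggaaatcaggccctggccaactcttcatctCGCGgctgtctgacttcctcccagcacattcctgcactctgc
The FOXA1 window held 34 CpG pairs, the FOXC1 window 40 and the SPDEF window 8, against a median of 14 over 35116 human promoter windows of 300 bases. GATA3 and ESR1 have 6 windows each and PGR has 3; they are not printed. The letters of 4 motifs were searched on both strands. The forkhead core TGTTTAC is in 3.4% of all windows, GATAA in 22.7%, the oestrogen response half-site GGTCA in 37.4% and TATAAA in 11.5%. Among the 3 printed windows the single match was 1 half-site GGTCA in the FOXC1 window.

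No library had ESR1 at 1 FPKM or more. In these bulk libraries fewer cells that express a gene and less RNA of it per cell cannot be told apart. ESR1 (ENSG00000091831; hg38, chromosome 6, 151656691 to 152129619, plus strand) was at 0.0330 and 0.0767 FPKM in the siWFDC21P-1 libraries of set 1 against 0.0527 FPKM in siNC replicate 1, which rest on 13, 31 and 21 reads. In set 2 it was at 0.848 FPKM (325 reads) in the library labelled siWFDC21P-1 replicate 3 against 0.589 FPKM (227 reads) in the library labelled siNC replicate 2. In set 3 a single read was counted, in siWFDC21P-2 replicate 3, and 0 reads in the other 3 libraries, a count that allows up to 0.0135 FPKM in siNC replicate 3. ESR1 was thus highest in both libraries of set 2, with no overlap with the other sets. PGR (ENSG00000082175) was not listed in the tables of sets 1 and 2; in set 3 it had 1 read in siWFDC21P-2 replicate 3 and 0 in the other 3 libraries. TFF1 (ENSG00000160182; chromosome 21, 42362282 to 42366594, minus strand) was at 0.690 and 0.734 FPKM in the siWFDC21P-1 libraries of set 1 against 3.72 FPKM in siNC replicate 1, or 11 and 12 reads in the siWFDC21P-1 libraries against 60 in siNC replicate 1. It had 0 reads in both libraries of set 2 and was not listed for set 3. TFF1 was therefore read where ESR1 was near 0, and had no read in the set with the most ESR1. GREB1, a direct oestrogen receptor target, was at most 0.570 FPKM in any library. Of 22 oestrogen target genes, 10 were at 1 FPKM or more throughout set 1, 12 throughout set 2 and 11 throughout set 3; these included CCND1, which encodes cyclin D1, and XBP1, a transcription factor of the unfolded protein response, which are expressed in many cell types.

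The luminal factors split by set, each in its own way. FOXA1 (ENSG00000129514; chromosome 14, 37589984 to 37596059, minus strand) was at 7.68 and 6.88 FPKM in the siWFDC21P-1 libraries of set 1 against 4.65 FPKM in siNC replicate 1, and at 5.49 FPKM in the library labelled siWFDC21P-1 replicate 3 against 5.08 FPKM in the library labelled siNC replicate 2. In set 3 it was at 0.0578, 0 and 0.0585 FPKM in siWFDC21P-2 replicates 1 to 3 against 0.231 FPKM in siNC replicate 3, from at most 15 reads. Sets 1 and 2 were therefore alike in FOXA1, and set 3 stood below both without overlap. Exons of TTC6 overlap FOXA1 on the opposite strand and strand use in counting is not given in the sources used here; TTC6 was at most 0.268 FPKM.

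GATA3 (ENSG00000107485; chromosome 10, 8045378 to 8075203, plus strand) had the reverse arrangement in sets 1 and 3. It was at 0.159 and 0.135 FPKM in the siWFDC21P-1 libraries of set 1 against 0.0946 FPKM in siNC replicate 1, from 15, 13 and 9 reads. It was at 11.5 FPKM in the library labelled siWFDC21P-1 replicate 3 against 19.3 FPKM in the library labelled siNC replicate 2. It was at 11.3, 30.0 and 28.5 FPKM in siWFDC21P-2 replicates 1 to 3 against 7.98 FPKM in siNC replicate 3. Sets 2 and 3 overlapped in GATA3, and set 1 lay far below both. The transcript GATA3-AS1, which lies within the GATA3 locus without sharing exons, was at 1.28, 3.38 and 1.94 FPKM in siWFDC21P-2 replicates 1 to 3 against 0.724 FPKM in siNC replicate 3. In set 2, where GATA3 was as high, it was at 0.105 FPKM in the library labelled siWFDC21P-1 replicate 3 against 0.0149 FPKM in the library labelled siNC replicate 2; its value was 0 throughout set 1. SPDEF (ENSG00000124664; chromosome 6, 34537802 to 34556333, minus strand) was at 3.36 FPKM in the library labelled siWFDC21P-1 replicate 3 against 5.84 FPKM in the library labelled siNC replicate 2, while the 7 other libraries had at most 0.106 FPKM. Set 2 was thus the single set with FOXA1, GATA3 and SPDEF together.

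FOXC1 (ENSG00000054598; chromosome 6, 1609972 to 1613897, plus strand) was the member expressed in every library. It was at 10.6 and 16.3 FPKM in the siWFDC21P-1 libraries of set 1 against 8.63 FPKM in siNC replicate 1, at 7.89 FPKM in the library labelled siWFDC21P-1 replicate 3 against 8.70 FPKM in the library labelled siNC replicate 2, while its level was 36.6, 29.6 and 30.4 FPKM in siWFDC21P-2 replicates 1 to 3 against 24.7 FPKM in siNC replicate 3. Set 3 stood above the other sets, while sets 1 and 2 overlapped. Its forkhead neighbours on chromosome 6 did not share that pattern. FOXF2 was at 6.46 to 10.4 FPKM in set 1 and at most 0.293 FPKM elsewhere, and FOXQ1 was at 4.71 FPKM in the library labelled siWFDC21P-1 replicate 3 against 2.45 FPKM in the library labelled siNC replicate 2, at most 0.0299 FPKM in set 1 and not listed for set 3. EN1 (ENSG00000163064; chromosome 2, 118842171 to 118847678, minus strand), a homeobox factor, had 0 reads in all 3 libraries of set 1, which allows up to 0.0359 FPKM. It was at 8.99 FPKM in the library labelled siWFDC21P-1 replicate 3 against 13.3 FPKM in the library labelled siNC replicate 2. Its level was 8.37, 20.3 and 16.4 FPKM in siWFDC21P-2 replicates 1 to 3 against 5.82 FPKM in siNC replicate 3. Sets 2 and 3 overlapped in EN1, as they did in GATA3.

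**Figure D1:**
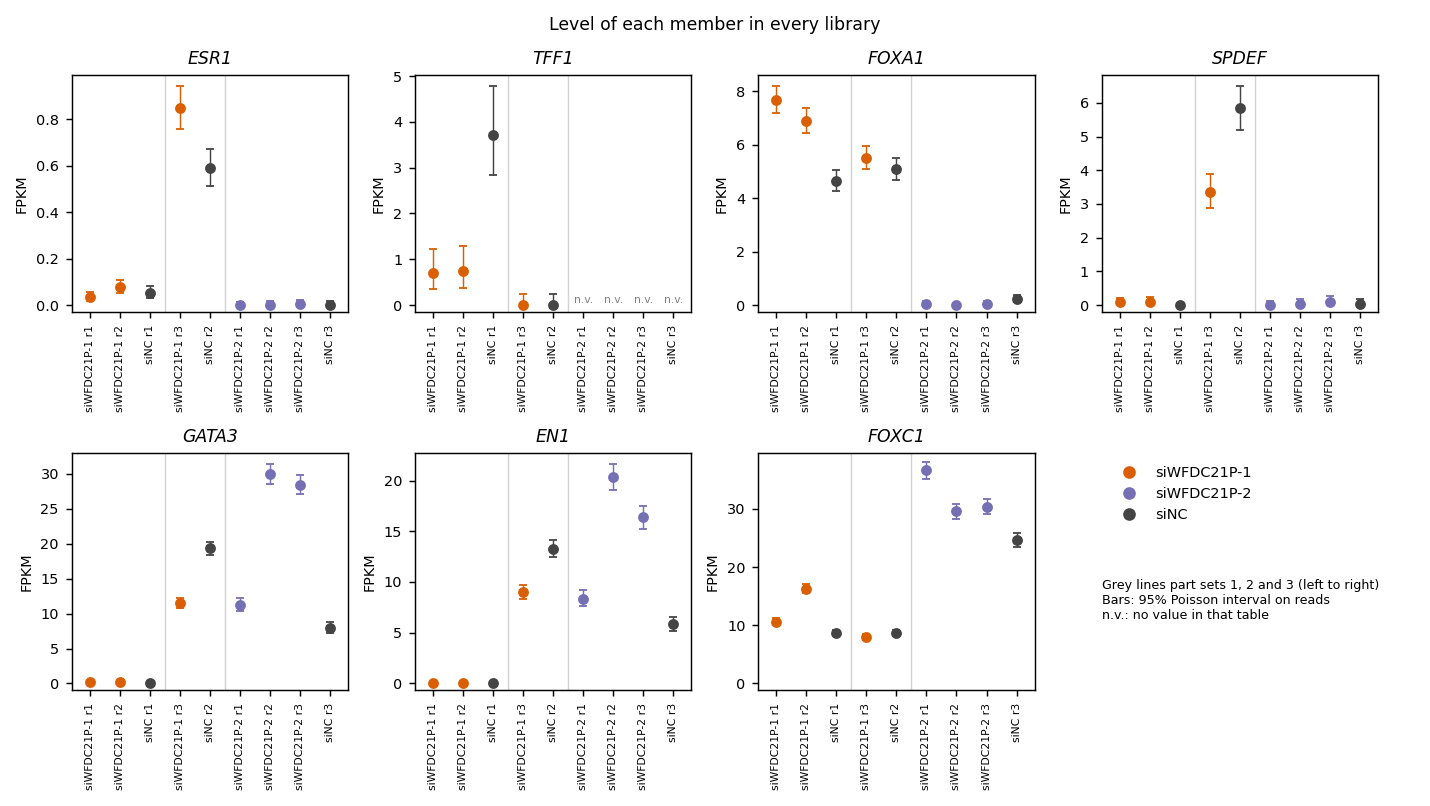
FPKM of 7 members (vertical axes, linear, 1 panel a gene) in each of the 9 libraries; orange points are siWFDC21P-1, violet siWFDC21P-2 and dark grey siNC, bars are 95% Poisson intervals of the read counts, for counting error alone. GATA3 and EN1 have the same outline, near 0 in set 1 and at 5.82 to 30.0 FPKM in sets 2 and 3, FOXA1 is near 0 in set 3 alone, and SPDEF is above 1 FPKM in set 2 alone.

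GATA3 and EN1 were also nearest to each other by a fixed measure of likeness. Among 26636 genes, EN1 was the gene nearest to GATA3 and GATA3 the gene nearest to EN1, with a root mean square difference of 0.19 between their log2(FPKM + 1) profiles, each centred on its mean over the 9 libraries. The next nearest to GATA3 were NMB, which encodes the neuropeptide neuromedin B, at 0.32 and NRN1, which encodes neuritin, at 0.37. For EN1 they were NMB at 0.29 and PCDHGC3, a protocadherin gene, at 0.29. The genes nearest to FOXA1 were EPPK1, which encodes epiplakin, at 0.15, MAP3K21, a kinase gene, at 0.15 and NFIA, a nuclear factor I gene, at 0.16. Those nearest to FOXC1 were ZNF239 at 0.18, TMCC1-DT at 0.19 and TMEM219 at 0.20. Those nearest to SPDEF were NWD1 at 0.07, PTGS1, which encodes cyclooxygenase 1, at 0.07 and MSX2, a homeobox factor gene, at 0.08. The points of these profiles share libraries and, above all, the 3 sets, so the values describe these 9 libraries. By the same measure FOXA1 and GATA3, the 2 best known partners of the oestrogen receptor, were 3.004 apart, the largest distance between any pair of members with a value in all 9 libraries.

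**Figure D2:**
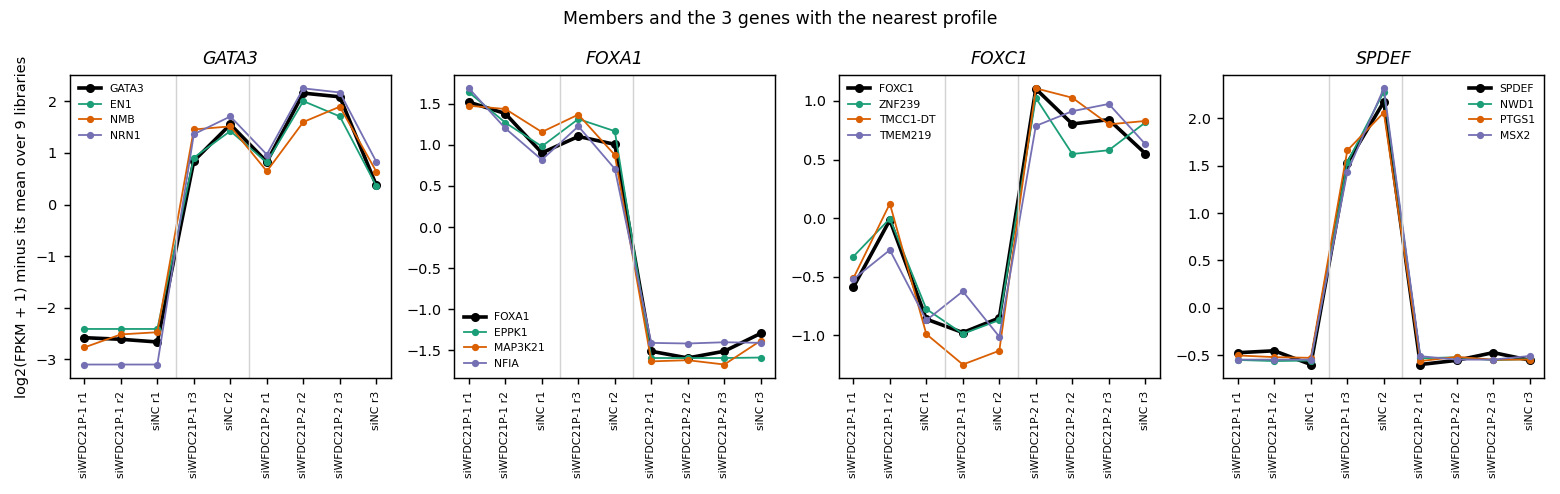
Profiles of GATA3, FOXA1, FOXC1 and SPDEF (black) and of the 3 genes nearest to each (colours) as log2(FPKM + 1) minus the gene's mean over the 9 libraries (vertical axes) against library (horizontal axes, sets 1, 2 and 3 from left to right; lines only guide the eye). GATA3 and EN1 run together, at a root mean square difference of 0.19, and SPDEF and its nearest genes are high in set 2 alone.

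Set 2 stood out in the wider luminal list, as it did in the luminal members. It also had the most genes of the basal list, whereas among the basal members FOXC1 was highest in set 3 and EN1 overlapped between sets 2 and 3. Of 31 luminal genes, 29 had a value in sets 1 and 2 and 25 in set 3. Of those, 20 were at 1 FPKM or more throughout set 2, 11 throughout set 1 and 10 throughout set 3. Of 31 basal genes, 29 had a value in sets 1 and 2 and 23 in set 3, and 23 were at 1 FPKM or more in set 2, 5 in set 1 and 7 in set 3. Both lists hold members. Set 2 thus had the most genes of both lists at 1 FPKM or more. The share of all genes at that level was not counted for each set, and set 3 had lower depth and fewer listed genes. In set 2 KRT19, a luminal keratin, was at 474 FPKM in the library labelled siWFDC21P-1 replicate 3 against 925 FPKM in the library labelled siNC replicate 2. KRT5, a basal keratin, was at 15.7 FPKM in the library of set 2 labelled siWFDC21P-1 against 12.1 FPKM in its siNC library, and KRT14, the usual partner of KRT5, at 19.3 FPKM in that library labelled siWFDC21P-1 against 8.63 FPKM in the siNC library. KIT, a receptor tyrosine kinase, was at 86.5 FPKM in the library labelled siWFDC21P-1 replicate 3 against 109 FPKM in the library labelled siNC replicate 2. ELF5, an ETS factor of luminal progenitors, was at 16.6 FPKM in the library of set 2 labelled siWFDC21P-1 against 3.52 FPKM in its siNC library. SOX9, a factor of the same family as SOX10, was at 81.5 FPKM in the library labelled siWFDC21P-1 replicate 3 against 73.7 FPKM in the library labelled siNC replicate 2, at 0 in set 1 and at 3.33 to 13.8 FPKM in set 3.

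Set 1 shared the simple-epithelial keratins KRT8 and KRT18, and TFAP2C, with set 2, but not KRT19, which was at most 0.0721 FPKM in set 1. Set 1 was also without most of either list. KRT8 was at 93.4 and 112 FPKM in its siWFDC21P-1 libraries against 232 FPKM in siNC replicate 1, and KRT18, the partner of KRT8, at 80.4 and 83.1 FPKM in the siWFDC21P-1 libraries against 151 FPKM in siNC replicate 1. KRT17, a keratin of the basal list, was at 2.98 and 16.7 FPKM in the siWFDC21P-1 libraries against 22.8 FPKM in siNC replicate 1. TFAP2C, an AP-2 factor of luminal cells, was at 14.1 and 17.3 FPKM in the siWFDC21P-1 libraries against 12.6 FPKM in siNC replicate 1. GATA2, a factor of the same family as GATA3, was at 38.9 and 28.7 FPKM in the siWFDC21P-1 libraries against 40.6 FPKM in siNC replicate 1, and lay between 1.37 and 6.04 FPKM in sets 2 and 3; in FPKM, GATA2 was above GATA3 in set 1 and below it in set 2. In set 2 KRT8 was at 135 FPKM in the library labelled siWFDC21P-1 replicate 3 against 293 FPKM in the library labelled siNC replicate 2. In the same order, KRT18 was at 53.8 against 90.6 FPKM and TFAP2C at 35.8 against 41.4 FPKM. In set 3 KRT8 was at 3.99 to 5.44 FPKM and KRT5 at most 0.298 FPKM. MLPH and CA12, both of the luminal list, were nevertheless above their levels in sets 1 and 2. MLPH, which encodes melanophilin, was at 24.3, 13.2 and 13.1 FPKM in siWFDC21P-2 replicates 1 to 3 against 24.3 FPKM in siNC replicate 3, and CA12, a carbonic anhydrase gene, at 10.8, 30.5 and 17.1 FPKM in siWFDC21P-2 replicates 1 to 3 against 9.74 FPKM in siNC replicate 3.

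**Figure D3:**
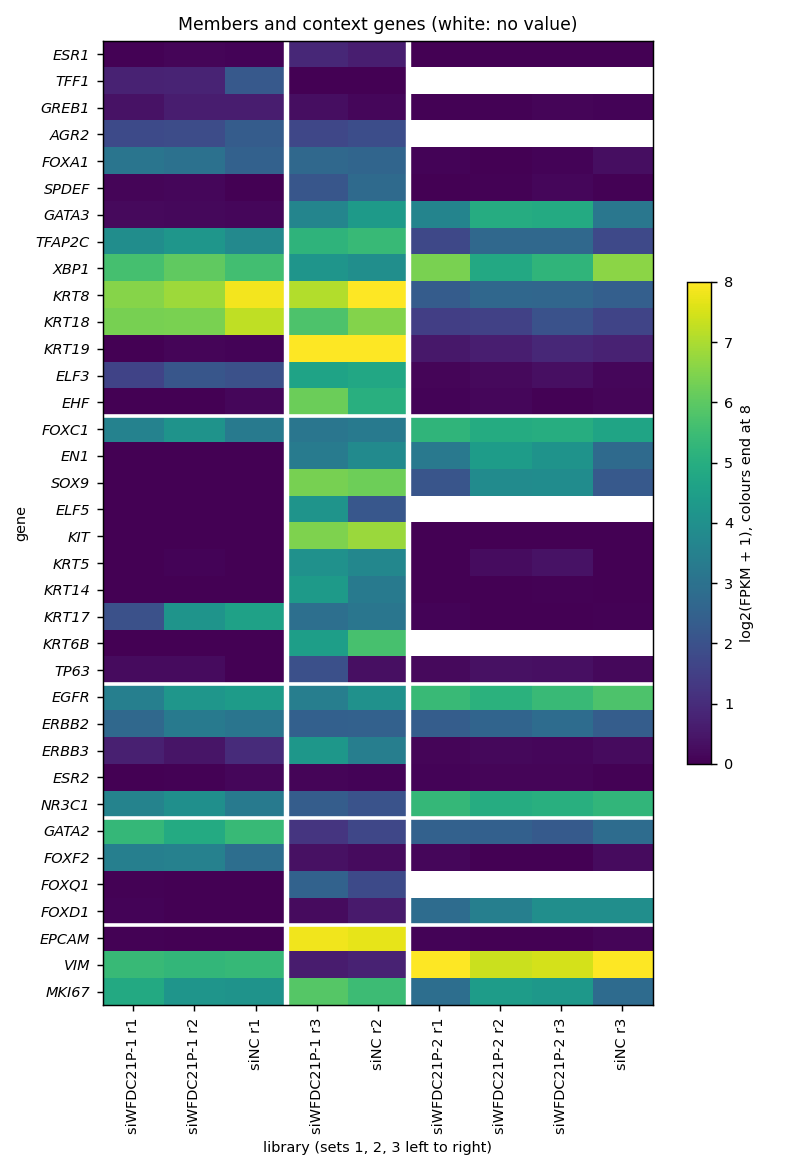
log2(FPKM + 1) (colour, ending at 8; white, no value) of luminal genes, basal genes, receptors, related factors and state markers (rows, 5 blocks from top to bottom) in the 9 libraries (columns, white lines between sets 1, 2 and 3). Set 2 is bright in both the luminal and the basal block. KRT8 and KRT18 are high in sets 1 and 2, set 1 has the highest GATA2, and set 3 has GATA3, EN1, FOXC1, NR3C1 and VIM.

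Receptors other than ESR1 and PGR also differed by set. NR3C1 was at 39.3, 29.9 and 32.2 FPKM in siWFDC21P-2 replicates 1 to 3 against 37.3 FPKM in siNC replicate 3, at 8.85 to 14.7 FPKM in set 1 and at 3.12 to 4.15 FPKM in set 2. ESR2, the gene of oestrogen receptor beta, was at most 0.106 FPKM in any library. GPER1, a membrane oestrogen receptor gene, was at 6.70 and 13.1 FPKM in the siWFDC21P-1 libraries of set 1 against 7.89 FPKM in siNC replicate 1, at 0.999 to 1.22 FPKM in set 2 and at most 0.323 FPKM in set 3. RARB, a retinoic acid receptor gene, was at 4.15 to 4.20 FPKM in set 2 and at most 0.378 FPKM elsewhere. NR2F2, an orphan receptor gene, was at 0 FPKM in set 2, at 4.35 to 7.87 FPKM in set 1 and 7.54 to 32.1 FPKM in set 3. ERBB2, the gene of the growth factor receptor HER2, was at 4.11 to 8.67 FPKM over all 9 libraries. ERBB3, its partner, was at 17.9 FPKM in the library labelled siWFDC21P-1 replicate 3 against 9.81 FPKM in the library labelled siNC replicate 2, while no other library had more than 0.964 FPKM. By these levels no set had ESR1 at 1 FPKM or more, set 3 had almost no ESR1 or PGR reads, and PGR had no value in sets 1 and 2. An RNA level gives no clinical receptor status.

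Against the siNC library of its own set, each library labelled as a knockdown can be compared by its reads alone, since a set holds 1 siNC library; the intervals below are 95% intervals for counting error and do not cover the spread between cultures. In set 1 FOXA1 was at 1.65 times (1.48 to 1.84) and 1.48 times (1.32 to 1.65) siNC replicate 1 in siWFDC21P-1 replicates 1 and 2, and FOXC1 at 1.23 times (1.13 to 1.34) and 1.89 times (1.75 to 2.04). TFF1 was at 0.185 times (0.0879 to 0.356) and 0.197 times (0.0965 to 0.370). Of the 5 tested members, 4 were above siNC replicate 1 in both siWFDC21P-1 libraries of set 1, with GATA3 and SPDEF among them at under 0.2 FPKM; over all 13014 tested genes 39.3% were so. In set 2, where WFDC21P was not below the control, FOXA1 was at 1.08 times (0.964 to 1.21) the library labelled siNC replicate 2, FOXC1 at 0.908 times (0.827 to 0.996), GATA3 at 0.593 times (0.549 to 0.640), EN1 at 0.677 times (0.615 to 0.744), SPDEF at 0.577 times (0.478 to 0.694) and ESR1 at 1.44 times (1.21 to 1.72). Of the 5 tested members, 4 were below the control in set 2, against 45.0% of all tested genes.

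In set 3 GATA3 was at 1.42 times (1.25 to 1.60), 3.76 times (3.37 to 4.19) and 3.57 times (3.20 to 3.98) siNC replicate 3 in siWFDC21P-2 replicates 1 to 3. EN1 was at 1.44 times (1.23 to 1.68), 3.49 times (3.05 to 4.01) and 2.81 times (2.45 to 3.24) in the same order, and FOXC1 at 1.49 times (1.39 to 1.58), 1.20 times (1.12 to 1.28) and 1.23 times (1.15 to 1.32). These 3 of the 5 tested members were above the control in all 3 siWFDC21P-2 libraries, against 26.9% of all tested genes, and FOXA1, at 4, 0 and 4 reads in siWFDC21P-2 replicates 1 to 3 against 15 in siNC replicate 3, was below it in all 3, against 26.0%. Replicate 1 was nearer to the control than replicates 2 and 3 in several genes, though FOXC1 was furthest from it in replicate 1. SOX9 was at 0.894, 3.64 and 3.69 times siNC replicate 3 in siWFDC21P-2 replicates 1 to 3, and MKI67, a marker of dividing cells, at 1.08, 3.37 and 3.01 times; XBP1 was at 0.855, 0.284 and 0.382 times. The part of proliferation in the GATA3 and EN1 values was not tested. No tested member was above, or below, the control of its set in all 6 libraries labelled as knockdowns. These 6 include the set 2 library whose WFDC21P was not below its control. Of all tested genes 10.8% were above the control in all 6 and 7.92% below it in all 6. Of 15 tested genes in a fixed group of context genes, MKI67 alone was above the control in all 6 and EGFR alone below it. Over the 5 libraries of sets 1 and 3, 2 of the 5 tested members were above it in all 5, FOXC1 and, at under 0.2 FPKM in set 1, GATA3, and 0 were below it in all 5, against 14.0% and 11.7% of all tested genes.

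**Figure D4:**
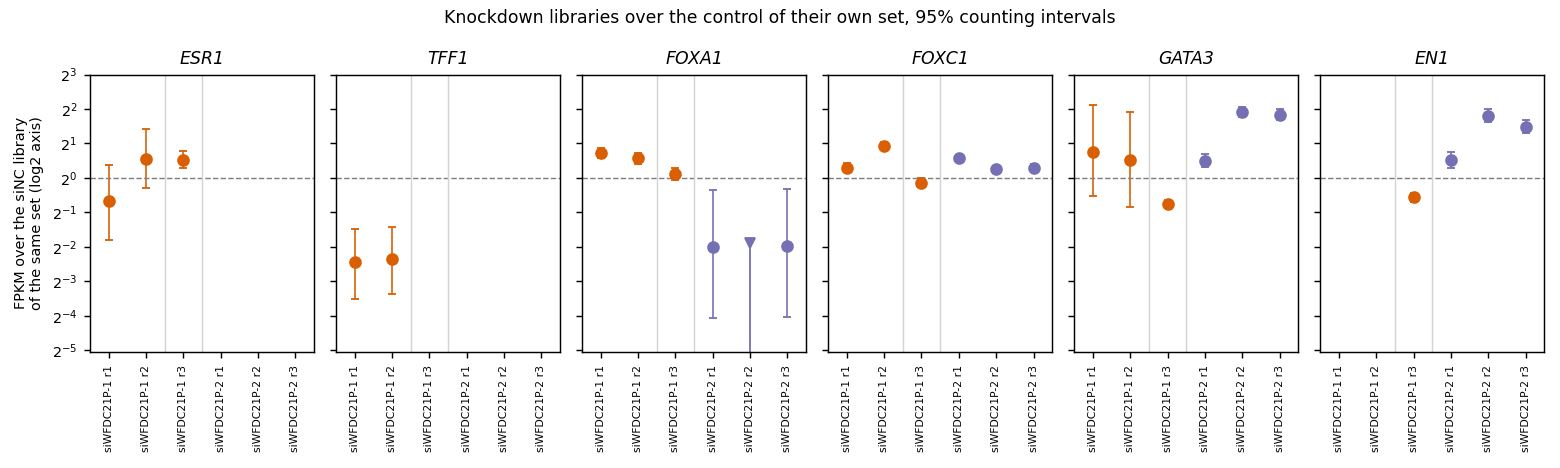
FPKM of 6 members in each knockdown library divided by the siNC library of the same set (vertical axis, log2 scale; dashed line, equal levels), with 95% counting intervals; pairs with under 15 reads in sum are left out, and the triangle marks the upper limit of a count of 0. GATA3 and EN1 lie above the line in all 3 siWFDC21P-2 libraries and below it in the library labelled siWFDC21P-1 replicate 3, and TFF1 lies below it at 0.185 and 0.197 times.

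No member passed the test over libraries in either comparison. By limma on log2(FPKM + 1) with a term for the 2 styles of library names, which part the tables with 34377 listed genes (sets 1 and 2) from those with 29104 (set 3), 0 of 13014 genes passed a Benjamini-Hochberg adjusted p of 0.05 for siWFDC21P-1 against siNC, which is 0%, and 708 had an unadjusted p under 0.05. For siWFDC21P-2 against siNC 0 genes passed, also 0%, and 190 had an unadjusted p under 0.05. For siWFDC21P-1, FOXA1 had a log2 fold change of 0.38 ± 0.22 (SE), FOXC1 of 0.33 ± 0.29, SPDEF of -0.59 ± 0.89, EN1 of -0.81 ± 1.34 and GATA3 of -0.89 ± 1.43, all with a limma adjusted p of 1. For siWFDC21P-2, GATA3 had a log2 fold change of 1.32 ± 1.82, EN1 of 1.15 ± 1.69, FOXC1 of 0.36 ± 0.37, FOXA1 of -0.25 ± 0.27 and SPDEF of 0.01 ± 1.13, all with a limma adjusted p of 0.99992. The FOXA1 value depends on the pseudocount, since FOXA1 was near 0 in set 3: it was -1.29 with a pseudocount of 0.1 and -2.90 with limma-voom on recovered reads, neither of which was called. The 95% intervals were wide: -2.93 to 5.57 for GATA3 under siWFDC21P-2 and -4.25 to 2.47 under siWFDC21P-1. Sets 1 and 2 have the same naming style, and siWFDC21P-1 and siNC hold these sets in different shares. The siWFDC21P-1 values of this fit, and the difference between the siRNAs, therefore also carry the difference between sets 1 and 2. The difference between the 2 siRNA effects, siWFDC21P-1 minus siWFDC21P-2, was called for 0% of genes; for GATA3 it was -2.21 ± 2.31 and for FOXA1 0.63 ± 0.35 (limma adjusted p 0.99958 for both), which was 3.35 for FOXA1 with limma-voom.

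With the expression set as the term in place of the naming style, the standard error of GATA3 under siWFDC21P-2 was 0.51 in place of 1.82. GATA3 then had a log2 fold change of 1.32 and EN1 one of 1.15 ± 0.43, with unadjusted limma p-values of 0.035 and 0.029 and an adjusted p of 0.756 for both, higher in 3 of 3 siWFDC21P-2 libraries than in siNC replicate 3. That fit called 3 of 13014 genes for siWFDC21P-1, or 0.0231%, and 0% for siWFDC21P-2; no member was among them. In set 3 siNC had 1 library, whose spread was assumed to be like that of the other libraries, so both siWFDC21P-2 estimates rest on siNC replicate 3. Under siWFDC21P-1 the set term gave log2 fold changes of -0.26 ± 0.41 for GATA3, -0.22 ± 0.34 for EN1 and -0.20 ± 0.20 for SPDEF. FOXA1 was then at 0.35 ± 0.17 and FOXC1 at 0.27 ± 0.25 under siWFDC21P-1. The difference between the siRNAs was -1.58 ± 0.66 for GATA3 and 0.60 ± 0.27 for FOXA1 with the set term.

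**Figure D5:**
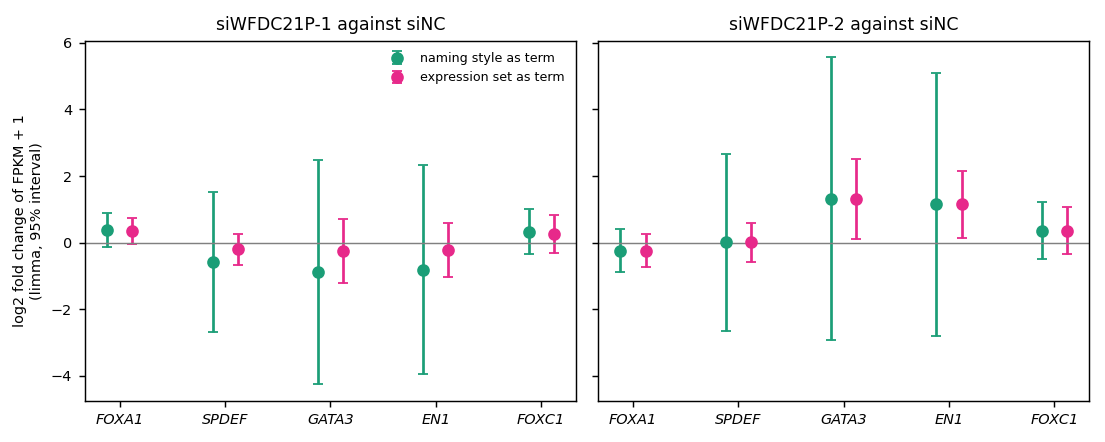
limma log2 fold changes of FPKM + 1 (vertical axis, with 95% intervals) of the 5 tested members for siWFDC21P-1 (left) and siWFDC21P-2 (right) against siNC, with the naming style (green) or the expression set (pink) as a term. The intervals for GATA3 and EN1 under siWFDC21P-2 lie above 0 with the set as term, and their adjusted p over all genes was 0.756.

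Without regard to sets, the 3 siWFDC21P-1 libraries had FOXA1 at 6.69 ± 1.11 FPKM against 3.32 ± 2.68 FPKM in the siNC libraries (SD, n = 3 each), and no siWFDC21P-1 library overlapped siNC (two-sided exact permutation test, p = 0.1, the smallest that 3 against 3 libraries allow). Of all tested genes 6.65% had all 3 siWFDC21P-1 libraries above siNC and 2.94% had them below. The siWFDC21P-2 libraries had FOXC1 at 32.2 ± 3.87 FPKM against 14.0 ± 9.24 FPKM in siNC, and FOXA1 at 0.0387 ± 0.0335 FPKM against 3.32 ± 2.68 FPKM in siNC, both without overlap (exact permutation p = 0.1 each, n = 3). All 3 siWFDC21P-2 libraries were above siNC in 8.77% of tested genes and below it in 9.51%. The siWFDC21P-2 libraries all belong to set 3 and the siNC libraries to 1 set each, so for these pooled values the siRNA and the set cannot be told apart. The pooled siWFDC21P-1 values carry set differences too. No siWFDC21P-1 library is in set 3, where siNC replicate 3 had FOXA1 at 0.231 FPKM. Over the control of its own set, FOXA1 was at 1.65, 1.48 and 1.08 times in siWFDC21P-1 replicates 1 to 3.

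No gene of any luminal, basal, receptor, coregulator, HER2, forkhead, GATA, SOX or PAM50 list passed the limma test with Benjamini-Hochberg adjustment in either comparison. Of the luminal list 19 of 31 genes were tested, with a median log2 fold change of -0.25 under siWFDC21P-1 and 0.01 under siWFDC21P-2, beside 0.02 over all tested genes under each siRNA. The basal list had 18 of 31 tested and medians of -0.56 under siWFDC21P-1 and 0.07 under siWFDC21P-2. The oestrogen targets had 11 of 22 tested and medians of -0.26 under siWFDC21P-1 and -0.05 under siWFDC21P-2, and the nuclear receptors 27 of 34 tested and medians of 0.27 under siWFDC21P-1 and 0.21 under siWFDC21P-2. The forkhead family had 15 of 24 tested and medians of 0.30 under siWFDC21P-1 and -0.18 under siWFDC21P-2, and the GATA, SOX, engrailed and related factors 14 of 30 and medians of -0.34 under siWFDC21P-1 and 0.05 under siWFDC21P-2. The receptor coregulators had 19 of 20 tested and a median of 0.04 under each siRNA, and the PAM50 genes, a list for naming tumour subtypes, 43 of 50 and medians of 0.21 under siWFDC21P-1 and 0.11 under siWFDC21P-2. With the set as the term, the siWFDC21P-1 median was 0.07 for the basal list, -0.13 for the luminal list, -0.08 for the oestrogen targets and -0.17 for the GATA, SOX, engrailed and related factors, beside 0.03 over all genes.

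Markers of other cell types were mostly near 0. Of 7 leukocyte genes, none was at 1 FPKM or more throughout set 1, and CD14 was the single one in set 2 and in set 3. In set 2 CD14 was at 29.6 FPKM in the library labelled siWFDC21P-1 replicate 3 against 36.1 FPKM in the library labelled siNC replicate 2. Of 5 endothelial genes KDR alone was so, in set 2, at 25.7 against 19.4 FPKM in the same order. TEK, another of the 5, reached 4.94 FPKM in its highest library. Of 10 hepatocyte and gut genes and 5 lung genes none was at 1 FPKM or more throughout a set, and the summed level of those with a value was at most 0.694 FPKM and 0.188 FPKM in any library. Of 8 neural crest genes, which include SOX10, MITF alone was so, in sets 1 and 2, and it was at most 11.2 FPKM in any library.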

How the data were processed

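RNA-seq of 9 libraries, 3 a group, was analysed from FPKM values per Ensembl gene, which the authors deposited as 1 table a library. The submitters' processing notes name the tools HTSeq 0.6.0, Bowtie2 2.2.3 and HISAT2 2.1.0, with hg38 as the build; the annotation used and the use of strand are not given in the sources used here. The 9 genes and all gene lists were chosen with earlier results of these data known. Whole reads were recovered from the FPKM steps (relative depth from low values, exon lengths of GENCODE release 29 or the smallest step); 98.0% of the 26636 shared genes gave whole reads in all 9 libraries, within 0.02 of a read. They served for depths, Poisson intervals (95%), limits of a count of 0 (3 reads) and ratios within a set, all for counting error only.

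Sets came from average-linkage clustering on 1 minus Pearson's r, divided at a height of 0.15. Genes that averaged 1 FPKM or more were tested with limma 3.58.1 (R 4.3.3, trend) on log2(FPKM + 1), with group and naming style as terms and Benjamini-Hochberg adjustment over 13014 genes; a fold change on that scale understates low genes. The step was tested on simulated data. Python 3.11.15 with SciPy 1.17.1 gave exact tests. Named were all members, most of a fixed group of context genes, leading genes of each list and the 3 genes of nearest profile to each member. FOXF2, FOXQ1, GATA3-AS1 and other genes were chosen after their values were seen. Alternatives are given at the end. No 2 libraries had identical values. No genome sequence was read; promoters are RefSeq's.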

Additional observations from a re-analysis of the deposited data

Results flagged for a closer look

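The members GATA3, EN1 and FOXC1 had libraries labelled as knockdowns on opposite sides of the controls in different sets. At least 1 FPKM in both controls was required. The difference between sets was not tested. Between sets 2 and 3, set and siRNA cannot be told apart. FOXC1 also differed between sets 1 and 2, which share siWFDC21P-1. Set 2 has 1 library labelled as a knockdown. In it WFDC21P was at 0.227 FPKM (7 reads) against 0.129 FPKM (4 reads) in its control, and so not below it. GATA3 was at 0.593 times the control in the library labelled siWFDC21P-1 replicate 3 (set 2), and at 1.42, 3.76 and 3.57 times the control in siWFDC21P-2 replicates 1 to 3 (set 3). EN1 was at 0.677 times in the library labelled siWFDC21P-1 replicate 3, and at 1.44, 3.49 and 2.81 times in the siWFDC21P-2 libraries. FOXC1 was at 0.908 times in the library labelled siWFDC21P-1 replicate 3, at 1.23 and 1.89 times in siWFDC21P-1 replicates 1 and 2 (set 1), and at 1.49, 1.20 and 1.23 times in the siWFDC21P-2 libraries.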

How the results depend on the processing

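The counts of called genes (0 for each siRNA) changed under few settings. For siWFDC21P-1 they were 3 with the expression set as the term and 2 with that term and without set 2, an alternative chosen after seeing the data. For siWFDC21P-2 they were 14 with no filter on low values, all lower, and 0 to 3 when 1 library was left out, 3 without siWFDC21P-2 replicate 1; the cause was not tested. For the difference between the siRNAs, whose alternatives were added after seeing the data, 9 genes were called with no filter and 0 to 1 with 1 library left out, 1 without siWFDC21P-2 replicate 1. None of 195 fold changes of the 5 tested members under other settings was called. Of these, 184 kept their direction, 10 did not, and 1 was at 0 (EN1 under siWFDC21P-1 without set 2, where it has no reads in set 1). FOXA1 under siWFDC21P-2 kept its direction but ranged from -2.90 (limma-voom) to -0.18 (quantile normalization), beside -0.25. Without a naming style term FOXC1 was at -0.14 under siWFDC21P-1 and SPDEF at -0.88 under siWFDC21P-2. With limma-voom on recovered reads SPDEF was at 0.57 under siWFDC21P-1 and -0.19 under siWFDC21P-2. Without set 2 GATA3 was at 0.0675 and SPDEF at 0.13 under siWFDC21P-1. With 1 library left out, siWFDC21P-1 gave -3.00 to 1.21 for GATA3, -2.73 to 1.11 for EN1 and -1.97 to 0.80 for SPDEF, lowest without siNC replicate 1 and highest without siNC replicate 2, and siWFDC21P-2 gave -0.0233 to 0.0396 for SPDEF. Without siNC replicate 3 no siWFDC21P-2 value could be had.

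Same-numbered libraries did not deviate together (correlations of -0.683 to 0.667 over 9 pairs), so the numbers do not pair them. With the replicate number as a block, 0 genes were called for either siRNA; GATA3 was at -1.57 under siWFDC21P-1 and 2.66 under siWFDC21P-2.

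ESR1 outside set 2, PGR in set 3, SPDEF outside set 2, FOXA1 in set 3 and GATA3 in set 1 rest on few reads. Of these, the ESR1 ratios in set 1 and the GATA3 ratios in set 1 had counting intervals that span 1, while those of FOXA1 in set 3 lay below 1. A set has 1 control library, and no setting separates the siWFDC21P-2 effect from siNC replicate 3.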
